A study of Arabidopsis thaliana with 12 samples.

Results

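Transcript levels were compared by sequencing of bead-selected mRNA between Arabidopsis thaliana plants that carry GRF3 fused to the green fluorescent protein gene behind the viral 35S promoter, called GRF3_OE here, and wild type plants of the same strain, Ws, called WT. The comparison held 6 of the 12 sequenced samples, GRF3_OE replicates 1 to 3 and WT replicates 1 to 3, which were chosen by the genotype given in the labels. All were whole plants grown for 14 days on MS medium, a standard salt medium, in randomized complete blocks. The 35S promoter is active in most plant tissues, and the sources used here do not say how many independent lines were used. The other 6 samples, 3 of a GRF1-GFP overexpressor behind the same promoter (GRF1_OE) and 3 labelled as a grf1/grf2/grf3 mutant (labelled grf123 below), entered the same statistical fit. They are used below only for direct comparisons with GRF3_OE and for the levels given beside it. Gene positions are those of the TAIR10.1 annotation. The deposited read counts were scaled for library size, as CPM, and each mean is given with its SD over 3 samples. The labels do not say whether replicates came from separate cultures, so p-values measure the spread between these samples, part of which may be technical.

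Growth-regulating factors are plant transcription factors that bind DNA through a WRC domain and pair with GRF-interacting factors (GIF), coactivators without DNA binding of their own, through a QLQ domain. They are known for promoting cell proliferation in young leaves, and their transcripts are held down in older tissue by the microRNA miR396, which pairs with a site in the coding sequence of most family members. GRF3 is one of the members with that site.

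The miR396 sequences and the sites are shown because the family members that changed in GRF3_OE share them. Sequences are from the TAIR10.1 reference, which is the Col-0 strain and not Ws, written 5′ to 3′. In the microRNAs the capitals mark the seed, bases 2 to 8. In the sites the capitals mark bases that pair with miR396a-5p, with 1 extra unpaired base allowed.
miR396a-5p, chr2:4142443-4142463, minus strand: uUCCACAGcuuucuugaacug
miR396b-5p, chr5:13611808-13611828, plus strand: uUCCACAGcuuucuugaacuu
GRF1, chr2:9729944-9729965, plus strand: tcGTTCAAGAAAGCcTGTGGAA
GRF2, chr4:17726404-17726425, minus strand: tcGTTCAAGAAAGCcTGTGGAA
GRF3, chr2:15271745-15271766, minus strand: CcGTTCAAGAAAGCcTGTGGAA
The site of GRF3 paired at 20 of 21 microRNA bases, and those of GRF1 and GRF2 paired at 19 and had the same 22 bases. GRF4 (AT3G52910), GRF7, GRF8 and GRF9 held a site of the same kind, with 19 or 20 paired bases. GRF5 and GRF6 had no window with at least 17 paired bases in their coding sequence. The precursor transcripts of both microRNAs were too rare to assess, since MIR396a had at most 3 counts and MIR396b at most 2 in any of the 6 samples.

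GRF3 was the transgene and was high in all 3 GRF3_OE samples. Its level was 214.9, 194.4 and 220.4 CPM in GRF3_OE replicates 1 to 3 and 15.9, 22.1 and 29.4 CPM in WT. The groups lay far apart, with means of 209.9 ± 13.7 and 22.5 ± 6.78 CPM, and the log2 change was 3.31 (SE 0.15, edgeR adjusted p = 8.83e-12). The samples labelled grf123 averaged 22.7 CPM of GRF3, close to WT, so that label does not match a loss of GRF3 reads. Counts do not separate transgene transcripts from those of the gene on chromosome 2, and whether the deposited counting took reads of the fusion to this locus alone is not given in the sources used here.

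The transcripts of 2 close relatives were lower in GRF3_OE than in WT. GRF2 stood at 0.942, 1.1 and 0.565 CPM in GRF3_OE and at 12.4, 12.4 and 8.34 CPM in WT, a log2 change of -3.72 with an SE of 0.35 (edgeR adjusted p = 5.67e-07). GRF1 stood at 8.95, 8.67 and 8.93 CPM in GRF3_OE and at 16.6, 15.9 and 18.9 CPM in WT, and fell by 0.92 (SE 0.18, edgeR adjusted p = 0.0026). Neither gene's samples overlapped between groups, as was the case for 32.2% of all tested genes and for 2168 of the 2226 called genes. The same low levels were present in other genotypes, since GRF2 averaged 0.742 CPM in GRF1_OE and 0.929 CPM in the samples labelled grf123, and GRF1 averaged 8.58 CPM in the latter. High GRF3 therefore cannot be told apart from low GRF1 and GRF2 in these plants. Among the remaining family members GRF4 averaged 7.0 ± 0.693 CPM in GRF3_OE against 4.05 ± 2.19 in WT. Its log2 difference of 0.63 (SE 0.27) missed the threshold with an edgeR adjusted p = 0.125 and passed it when WT replicate 1 was left out (adjusted p = 0.0191). GRF5, GRF8 and GRF9 had log2 differences of -0.79, -0.49 and -0.87, all with edgeR adjusted p of 0.159 or more. GRF6 and GRF7 had at most 7 counts in any sample and were not tested. Of the coactivators, GIF1 (AT5G28640) was called higher, at 11.1 ± 2.6 CPM against 6.87 ± 1.56 (log2 change 0.62, SE 0.20, edgeR adjusted p = 0.0417). Under 8 of 17 alternatives GIF1 was no longer called, among them leaving out GRF3_OE replicate 1, WT replicate 2 or WT replicate 3. GIF2 and GIF3 differed by 0.11 and -0.02 on the log2 scale and did not pass.

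**Figure D1:**
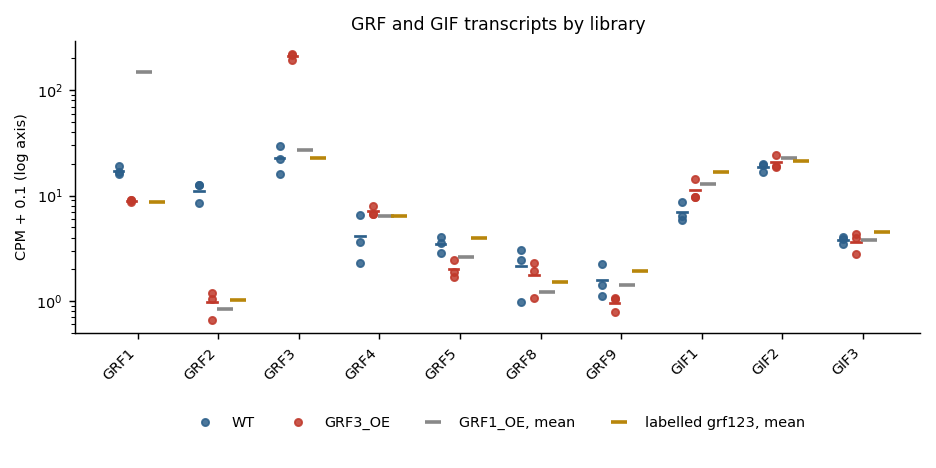
Level of each tested GRF and GIF transcript by sample, in CPM plus 0.1 on a log axis; points are samples with a bar at the group mean, and single marks are the means of GRF1_OE and of the samples labelled grf123. GRF3 sits near 200 CPM in all GRF3_OE samples, and GRF2 sits near 1 CPM in every genotype but WT.

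Across all loci, 17938 genes were tested and 2226 of them, 12.4%, differed between GRF3_OE and WT at an edgeR adjusted p under 0.05. Of the tested genes 1088 (6.07%) were higher and 1138 (6.34%) were lower in GRF3_OE. Most changes were small, and a change of 2-fold or more was reached by 114 genes called higher and 159 called lower. With 3 samples a group the calls were sensitive to single samples. Leaving out GRF3_OE replicate 2, GRF3_OE replicate 3 or WT replicate 2 lowered the count of calls to 1200, 1240 and 1309. A set of 411 genes, 264 higher and 147 lower, was called in the same direction under all 17 alternatives.

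**Figure D2:**
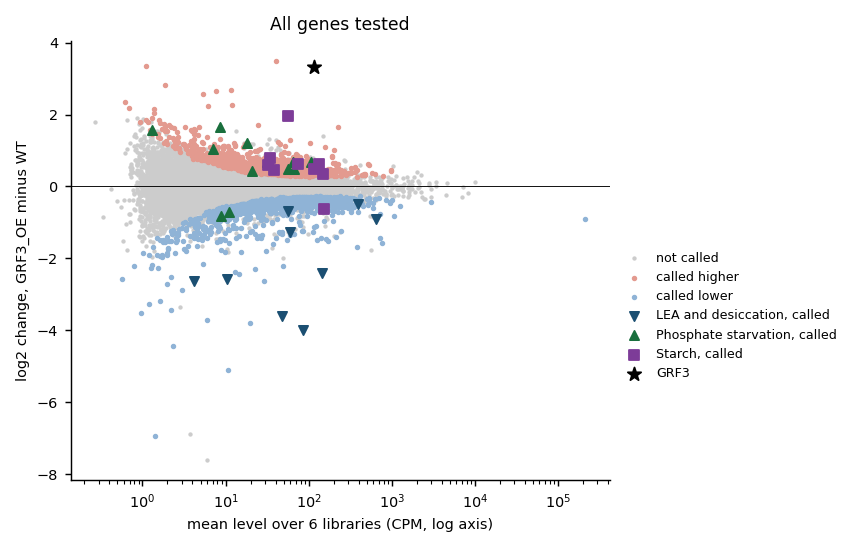
Log2 change of every tested gene in GRF3_OE against WT by mean level over the 6 samples (log axis), with called members of 3 gene lists and GRF3 marked. The called desiccation genes lie below 0 and reach -4.00 (LEA7), while phosphate starvation and starch genes lie mostly between 0 and 2.

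Measurements of the samples themselves also differed by genotype. Gene counts ran from 6011082 to 8251858 in GRF3_OE and from 2820223 to 8238541 in WT, WT replicate 3 being the shallowest, and the 18S ribosomal RNA locus AT3G41768 took 13.1 to 19.4% of gene counts in GRF3_OE and 18 to 31.8% in WT. Reads outside annotated genes were 4.57 to 5.11% of the reads counted in, outside or ambiguously between genes in GRF3_OE and 8.28 to 12.1% in WT, without overlap. The same share was 4.08 to 4.66% in GRF1_OE and 6.39 to 9.53% in the samples labelled grf123. WT replicate 3 stood apart from the other WT samples, at 55.1 on the first principal component against 20.01 and 22.5 and at 43.7 on the second against 0.389 and 9.37, with a TMM factor of 0.809. The part of these features in the results was not tested. Short transcripts tended to be higher and long transcripts lower in GRF3_OE: across the 17924 genes with a known exonic length, Spearman's rho between length and log2 change was -0.40. This is a description across genes, which are not independent replicates. In the shortest of 5 equal classes of genes (75 to 1191 bases) 436 were called higher and 91 lower, with a median log2 change of 0.22. In the longest class (2574 to 16593 bases) 41 were called higher and 685 lower, with a median of -0.21. When the length trend was removed from each sample before the fit, 580 genes (3.23%) were higher and 387 (2.16%) lower, of which 483 and 336 were also called without that step. Whether the length trend arose in the plants or in library preparation was not tested. Genes whose products are annotated as ribosomal proteins, a set of mostly short transcripts chosen after the calls were seen, show the size of the effect. Of 258 tested, 31 were higher and 4 lower as reported, and 4 were higher and 7 lower with the length trend removed. The counts after that step are given with the main gene groups below.

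A second feature was a block of loci on chromosome 2. Of 54 tested genes that start between 3000001 and 3500000 in TAIR10.1, 39 were lower in GRF3_OE and 0 were higher, against 6.34% and 6.07% of all genes. DESeq2 called 33 lower and 0 higher, and 1 was higher at an unadjusted p under 0.05. Their median log2 change was -1.26, and 38 of the 159 genes at least 2-fold lower lie here, so that 121 remain elsewhere. This stretch is known to hold a nuclear copy of the mitochondrial genome, and several loci are annotated with mitochondrial functions. AT2G07698, annotated as the alpha subunit of the F1 ATPase, stood at 380.3, 384.7 and 411.2 CPM in GRF3_OE and 819.7, 994.4 and 1379 CPM in WT (log2 change -1.44, SE 0.24, edgeR adjusted p = 0.00521). AT2G07687, annotated as cytochrome c oxidase subunit III, stood at 66.1 ± 3.94 CPM in GRF3_OE and 188.3 ± 40.6 in WT. Summed over the 54 genes the level was 1468, 1480 and 1607 CPM in GRF3_OE and 3113, 3559 and 5150 CPM in WT, and the groups did not overlap. The same sum was 1390 to 1882 CPM in GRF1_OE and 2117 to 3327 CPM in the samples labelled grf123. All loci of the mitochondrial genome itself were at 0 in every file, so reads of near-identical copies cannot be assigned here, and whether the difference lies in mitochondrial or nuclear transcripts cannot be told apart. With the length trend removed 39 genes of the window were lower, and without WT replicate 3 there were 36.

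**Figure D3:**
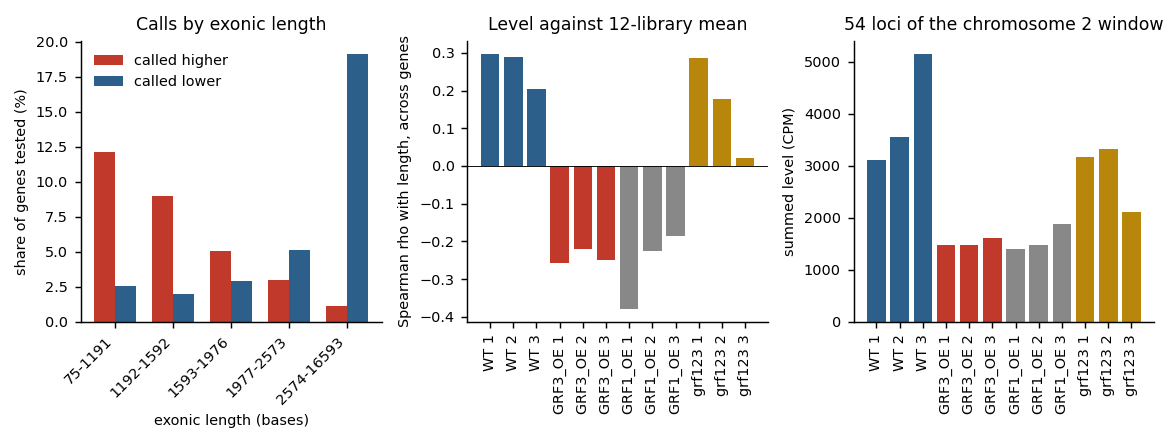
Left, share of tested genes called higher or lower in GRF3_OE against WT in the 5 classes of exonic length. Middle, Spearman's rho across genes between exonic length and each sample's level relative to the mean of all 12 samples, from 0.20 to 0.30 in WT and from -0.26 to -0.22 in GRF3_OE. It ran from -0.38 to -0.19 in GRF1_OE and from 0.02 to 0.29 in the samples labelled grf123. Right, summed level in CPM of the 54 tested genes of the chromosome 2 window in each sample; grf123 stands for the samples with that label.

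Many genes of desiccation tolerance were lower in GRF3_OE than in WT. Late embryogenesis abundant (LEA) proteins protect cells during water loss, and most of their genes are induced by the stress hormone abscisic acid. Of 18 tested genes of the desiccation list, 9 were lower and 0 higher, against 6.34% lower among all genes, and the median log2 change of the list was -0.82 against 0.00 over all genes. DESeq2 called 10 lower and 0 higher, and 0 were higher at an unadjusted p under 0.05. With the length trend removed the same numbers, 9 and 0, were called.

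LEA7 (AT1G52690, chr1:19619724-19621534, plus strand), a LEA gene, had the largest fall among called members of the lists. It stood at 3.14, 2.89 and 21.5 CPM in GRF3_OE and at 136.6, 130.1 and 213.4 CPM in WT (log2 change -4.00, SE 0.67, edgeR adjusted p = 0.00808). RD29B (AT5G52300, chr5:21237021-21239531, plus strand), a classic abscisic acid reporter gene, stood at 3.3, 1.93 and 14.7 CPM against 73.8, 78.7 and 111.1 CPM (log2 change -3.60, SE 0.59, edgeR adjusted p = 0.00727). For both genes GRF3_OE replicate 3 was the highest of its group and still lay well below every WT sample. RAB18 (AT5G66400), a dehydrin, stood at 27.9, 24.1 and 83.8 CPM against 228.4, 215.1 and 297.7 CPM (log2 change -2.41, SE 0.46, edgeR adjusted p = 0.014). LEA4-5 (AT5G06760, chr5:2089445-2090430, minus strand), a group 4 LEA gene, stood at 1.57, 2.75 and 4.52 CPM against 17, 20.8 and 16.2 CPM (log2 change -2.57, SE 0.29, edgeR adjusted p = 1.65e-05). P5CS1 (AT2G39800), which makes the osmolyte proline, fell from 854.6 ± 104 to 454.5 ± 76.6 CPM, with an edgeR adjusted p = 0.000363. TSPO (AT2G47770), LTP3, RD22 and RD20 were the other called members, with falls of 2.63, 1.27, 0.48 and 0.68 on the log2 scale. In 8 of the 9 called members GRF3_OE replicate 3 had the highest level of its group, against 868 of all 2226 called genes. Several of these genes were low in the other genotypes too. LEA7 averaged 1.84 CPM in GRF1_OE and 17.1 CPM in the samples labelled grf123, RD29B 2.35 and 27.1, and RAB18 25.3 and 64.6. WT was thus the high genotype for these genes. LEA7, RD29B, RAB18, LEA4-5 and TSPO differed from GRF3_OE in neither by the direct test (edgeR adjusted p of 0.0644 or more). Of the 18 list members, 5 were lower in GRF3_OE than in the samples labelled grf123 and 0 higher, against 1323 and 1351 of all 17938 tested genes. LTP3 missed the threshold when GRF3_OE replicate 1 or 2 or any single WT replicate was left out, and LTP3 and LTP4 are similar neighbouring genes whose reads may be split. LEA7 and RAB18 passed with all 12 samples in the fit but not when only the 6 samples of this comparison were fitted, with adjusted p of 0.0538 and 0.0791. Directly against GRF1_OE, RD20, P5CS1 and RD22 were higher in GRF3_OE, by 0.69, 0.64 and 0.59 on the log2 scale (edgeR adjusted p = 0.0104, 0.014 and 0.00254), so that their GRF3_OE means lay between WT and GRF1_OE.

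Not every stress gene of the list was low. LEA14 averaged 24.5 ± 1.78 CPM in GRF3_OE and 21.8 ± 1.28 in WT, and the dehydrin genes COR47 and ERD14 had log2 differences of -0.22 and -0.13, none of which passed. Of 12 tested cold response genes 2 were called, both higher, COR15B by 0.95 and COR27 by 1.79, and these calls were lost under 7 and 2 alternatives.

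Part of the abscisic acid synthesis and signalling genes were lower as well. Of 25 tested, 12 were lower and 0 higher, against 6.34% and 6.07% of all genes, with a median log2 change of -0.50. DESeq2 called 10 lower and 0 higher, 1 gene was higher at an unadjusted p under 0.05, and 9 were lower with the length trend removed, against 2.16% of all genes. In 11 of the 12 called members GRF3_OE replicate 3 again had the highest level of its group, against 868 of all 2226 called genes. The called genes were mainly negative regulators that the hormone itself induces and transcription factors downstream of it. Among the type 2C protein phosphatases, which hold the pathway off, HAI1 (AT5G59220) stood at 3.77, 3.17 and 4.52 CPM in GRF3_OE and 13.1, 10.8 and 18 CPM in WT (log2 change -1.78, SE 0.31, edgeR adjusted p = 0.00151). HAI2 (AT1G07430, chr1:2280746-2282828, minus strand) stood at 1.26, 1.79 and 2.94 CPM against 9.65, 10.9 and 5.71 CPM (log2 change -2.16, SE 0.34, edgeR adjusted p = 0.00066). ABI2, HAB1 and PP2CA fell by 0.80, 0.50 and 0.92, and the PP2CA call was lost under 4 alternatives. AFP1 and AFP3, whose products bind the factor ABI5 and damp the response, fell by 0.96 and 1.5. The homeodomain factor gene HB-12 (AT3G61890, chr3:22914154-22915393, minus strand) stood at 17.9, 15.4 and 22.7 CPM against 51.7, 67.2 and 48.3 CPM (log2 change -1.59, SE 0.16, edgeR adjusted p = 1.62e-05). Its relative HB-7 fell by 1.25 and the NAC factor gene RD26 by 1.07. NCED3 (AT3G14440), the stress-induced enzyme of abscisic acid synthesis, and CYP707A3, which breaks the hormone down, were also called lower, by 1.83 and 1.81. Each of these last calls was lost under 6 alternatives, including the length step and leaving out WT replicate 3, in which CYP707A3 reached 11.4 CPM against 1.90 and 3.35 in the other WT samples. The receptor genes PYL4, PYL5 and PYL6, the kinase genes SNRK2.2 and SNRK2.6 and the factor genes ABF2, ABF3, ABF4 and ABI5 did not pass, with log2 differences from -0.28 to 0.39. Directly against GRF1_OE, 0 of the 25 genes differed, against 1.14% of all genes. Against the samples labelled grf123, 12 were lower in GRF3_OE and 3 higher, against 1323 and 1351 of all 17938 tested genes. HAI1, HAI2 and HB-12 averaged 2.70, 1.35 and 14.2 CPM in GRF1_OE. They averaged 11.85, 12.5 and 39.3 CPM in the samples labelled grf123, whereas CYP707A3 averaged 0.886 CPM there.

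Among other genes with large decreases, the heat shock factor gene HSFA6A (AT5G43840) stood at 0.655 ± 0.630 CPM in GRF3_OE and 5.26 ± 0.426 in WT, the malic enzyme gene NADP-ME1 at 3.91 ± 3.13 and 21.8 ± 1.95, and the sucrose transporter gene SWEET15, also known as SAG29, at 17.1 ± 9.64 and 80.3 ± 12. Of these the NADP-ME1 call was lost without GRF3_OE replicate 1 or WT replicate 2, and the SWEET15 call also without GRF3_OE replicate 2. A pair of LEA genes without a symbol, named after their values were seen, had 0, 1 and 12 counts in GRF3_OE against 133, 124 and 64 in WT (AT2G42560) and 3, 3 and 54 counts against 289, 211 and 97 (AT3G17520). In both, GRF3_OE replicate 3 again held most of the counts of its group.

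Seed storage markers moved in the same direction, and their part in the desiccation result was not tested. Summed over 11 genes, mostly for cruciferins, albumins and oleosins they gave 2.03 to 3.29 CPM in GRF3_OE and 8.49, 59.4 and 23.7 CPM in WT replicates 1 to 3. Of the 11 genes 4 had no count in any GRF3_OE sample and 0 had none in WT. The spread within WT was wide, and WT replicate 2 was the highest, with 44 counts of SESA3 against 2 and 3 in the other WT samples. Of the list's 3 tested members edgeR called 0, DESeq2 called 1 lower and 2 were lower at an unadjusted p under 0.05. SESA5, an albumin gene outside the list and named after its values were seen, was called lower, from 22, 34 and 13 counts in WT to 1, 1 and 2 in GRF3_OE.

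Promoters of 3 of these genes are shown because the element ACGTG, the core of the abscisic acid response element, recurs in them. Each sequence is the 250 bases before the annotated start, in TAIR10.1, with ACGTG on either strand in capitals (matches on both strands overlap where the letters read CACGTG).
LEA4-5, chr5:2090431-2090680, minus strand: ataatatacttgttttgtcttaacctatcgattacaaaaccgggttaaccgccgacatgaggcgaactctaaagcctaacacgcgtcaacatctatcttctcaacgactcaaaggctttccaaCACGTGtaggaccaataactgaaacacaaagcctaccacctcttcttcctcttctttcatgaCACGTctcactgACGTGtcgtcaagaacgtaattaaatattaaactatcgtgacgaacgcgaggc
RD29B, chr5:21236771-21237020, plus strand: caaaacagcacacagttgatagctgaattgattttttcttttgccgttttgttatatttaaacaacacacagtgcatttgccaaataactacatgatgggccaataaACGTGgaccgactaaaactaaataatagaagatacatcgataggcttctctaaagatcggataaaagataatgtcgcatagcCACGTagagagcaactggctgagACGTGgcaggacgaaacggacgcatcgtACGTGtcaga
HAI2, chr1:2282829-2283078, minus strand: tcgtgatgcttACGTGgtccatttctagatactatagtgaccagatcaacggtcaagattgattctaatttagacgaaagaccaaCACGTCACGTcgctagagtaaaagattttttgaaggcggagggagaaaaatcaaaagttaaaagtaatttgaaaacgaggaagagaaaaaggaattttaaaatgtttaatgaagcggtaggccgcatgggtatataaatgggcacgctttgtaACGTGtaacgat
Each of these held 4 matches. In windows of 250 bases before to 50 bases after the start, ACGTG was present in 27.7% of the promoters of 17924 tested genes. It was present in 11 of 18 desiccation genes and 12 of 25 abscisic acid genes, and in 7 of the 9 and 7 of the 12 called members. Among all genes called lower the share was 28.8%, and among those called higher 29.1%, both near the background. The element TGTCAGG, to which the family member GRF7 is known to bind, occurred in 0.921% of all promoters, in 3 of 1138 called lower and in 16 of 1087 called higher. These are counts of letters and show no binding. CACGTG, the G-box, contains ACGTG and was found in 8.86% of all promoters, 10.5% of those called higher and 10.8% of those called lower.

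**Figure D4:**
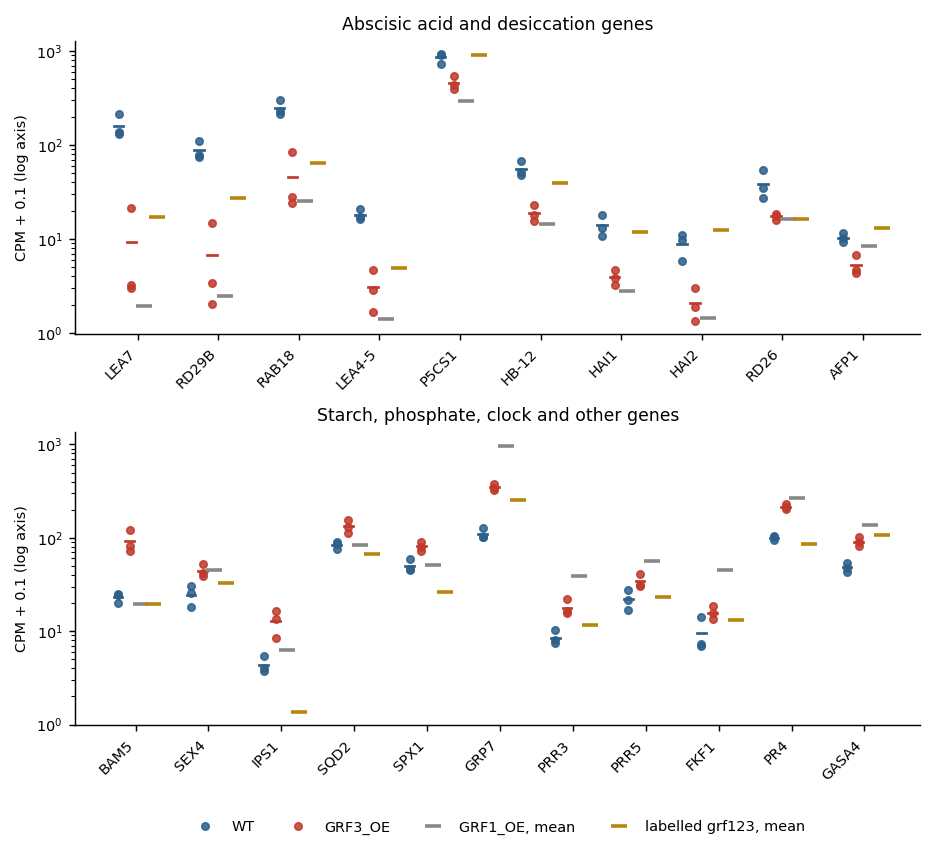
Levels by sample of named genes, in CPM plus 0.1 on a log axis, with bars at group means and single marks for the means of GRF1_OE and the samples labelled grf123. In the upper panel each desiccation or abscisic acid gene is lower in all 3 GRF3_OE samples than in all 3 WT samples. In the lower panel all 11 genes have a higher mean in GRF3_OE, with BAM5 standing out from every other genotype and GRP7 highest in GRF1_OE.

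A group of phosphate starvation genes was higher in GRF3_OE. When phosphate is short, the factor PHR1 raises genes that free phosphate, replace phospholipids and signal scarcity. Of 31 tested genes 10 were higher and 2 lower, against 6.07% and 6.34% of all genes, with a median log2 change of 0.34. With the length trend removed 7 were higher and 1 lower, and with any single sample left out between 4 and 9 were higher. The 4 came from leaving out GRF3_OE replicate 3. That sample had the highest level of its group in 10 of the 12 called members, against 868 of all 2226 called genes. Of the 12 calls, 4 were lost under no alternative. IPS1 (AT3G09922, chr3:3050989-3051530, plus strand), a non-coding RNA that traps the microRNA miR399, stood at 13.3, 8.26 and 16.5 CPM in GRF3_OE and 3.94, 3.64 and 5.27 CPM in WT (log2 change 1.65, SE 0.27, edgeR adjusted p = 0.000675). SQD2 (AT5G01220, chr5:86543-90117, minus strand), which makes sulfolipid, stood at 129.8, 113.2 and 156.5 CPM against 75.2, 85.9 and 89.1 CPM (log2 change 0.69, SE 0.11, edgeR adjusted p = 0.000685). SPX1 (AT5G20150), a phosphate sensor that holds PHR1 off, stood at 78.9, 72.4 and 90.6 CPM against 44.7, 59.8 and 46.5 CPM (log2 change 0.67, SE 0.14, edgeR adjusted p = 0.00514). The samples of both groups did not overlap for these 3 genes, as for 2168 of the 2226 called genes and 32.2% of all tested genes. The acid phosphatase genes PAP12 and PAP17 (AT3G17790) rose by 0.50 and 0.48, PAP17 not without GRF3_OE replicate 3. The phosphatase genes PS2 and PEPC1 were called higher by 1.2 and 1.05, SPX3 by 1.57, GDPD1 by 0.68 and PHO1;H1 by 0.43. These 5 calls were lost under 9, 4, 10, 5 and 10 alternatives. The uptake transporter genes PHT1;1 and PHT1;2 were called lower, by 0.70 and 0.81. They are near-identical neighbours whose reads may be split or left out, and both calls were lost under 5 alternatives, including leaving out WT replicate 3.

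Some phosphate genes also stood higher than in the other overexpressor. Directly against GRF1_OE, a contrast in which the WT samples serve only for the estimate of spread, 204 of all tested genes (1.14%) differed from GRF3_OE. Among the 31 phosphate genes 9 were higher in GRF3_OE, with a median log2 difference of 0.53 against 0.01 over all genes. PAP17 stood at 78.0 ± 10.8 CPM in GRF3_OE and 44.4 ± 7.70 in GRF1_OE, a log2 difference of 0.82 (SE 0.12, edgeR adjusted p = 0.000192). SQD2 differed by 0.66 (SE 0.11, edgeR adjusted p = 0.00154), IPS1 by 1.07 (SE 0.24, edgeR adjusted p = 0.0219) and SPX1 by 0.68 (SE 0.14, edgeR adjusted p = 0.0135). The other 5 were PHO1;H1, GDPD1, SQD1, PLDP2 and PAP10, with differences of 0.53 to 0.81. Against the samples labelled grf123, from which 14.9% of tested genes differed, 18 phosphate genes were higher in GRF3_OE and 4 lower.

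Among the 10 phosphate genes called higher, the 2 with the most matches to the PHR1 binding site GNATATNC have their promoters shown. The site is in capitals, in the 250 bases before the start in TAIR10.1.
SPX3, chr2:18606160-18606409, plus strand: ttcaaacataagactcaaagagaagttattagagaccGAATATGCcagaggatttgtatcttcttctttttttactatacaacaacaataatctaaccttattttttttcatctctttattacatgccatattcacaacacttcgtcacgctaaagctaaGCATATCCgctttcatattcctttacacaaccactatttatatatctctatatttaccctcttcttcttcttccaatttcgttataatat
GDPD1, chr3:350011-350260, minus strand: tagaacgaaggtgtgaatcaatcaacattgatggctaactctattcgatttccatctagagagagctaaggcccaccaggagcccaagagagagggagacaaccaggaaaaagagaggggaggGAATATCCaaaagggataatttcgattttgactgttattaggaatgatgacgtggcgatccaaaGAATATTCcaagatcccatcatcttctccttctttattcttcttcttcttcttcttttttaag
Both held 2 matches. In windows that also take the 50 bases after the start, the site was present in 14 of the 31 phosphate genes and 6 of the 12 called members. It was present there in 6.20% of all tested promoters, in 7.36% of those of genes called higher and in 4.92% of those called lower. In the 250 bases before the start, PS2 held 1 match. No match lies in that stretch of IPS1, SPX1, SQD2, PAP12, PAP17, PEPC1 or PHO1;H1, which says nothing of sites farther away.

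A few metal homeostasis genes were higher in GRF3_OE. Of 19 copper and superoxide dismutase genes 5 were higher and 0 lower, against 6.07% and 6.34% of all genes, also with DESeq2 (4 and 0), and 0 were lower at an unadjusted p under 0.05. They included the plastid iron superoxide dismutase genes FSD2 and FSD3, by 0.78 and 0.43, and the copper chaperone gene CCH, by 0.36. FRO5, a metal reductase gene, was the 1 member called with the length trend removed (3.23% of all genes were then higher), at 2.27 ± 0.485 CPM against 0.504 ± 0.114, and its call was lost without GRF3_OE replicate 1 or WT replicate 2. Of 20 iron genes NAS4 alone was called, higher by 0.81, and not with the length step.

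Several starch genes were higher in GRF3_OE. Leaf starch is made by day and broken down at night by branching and debranching enzymes, glucan kinases and phosphatases, beta-amylases and a cytosolic phosphorylase. Of 24 tested genes 8 were higher and 1 lower, against 6.07% and 6.34% of all genes. With the length trend removed the counts were 11 and 1, against 3.23% and 2.16%, and the median log2 change moved from 0.18 to 0.34. With any single sample left out between 4 and 7 were higher. BAM5 (AT4G15210, chr4:8666334-8669526, minus strand), a beta-amylase located outside the plastid, was raised the most. It stood at 71.3, 120.3 and 81.9 CPM in GRF3_OE and at 24.6, 24.5 and 19.8 CPM in WT (log2 change 1.95, SE 0.20, edgeR adjusted p = 0.000104). In GRF1_OE it averaged 19.5 ± 2.19 CPM, and the direct difference of 2.24 (SE 0.20) passed the test with an edgeR adjusted p = 2.53e-05. In the samples labelled grf123 it averaged 19.3 CPM, and GRF3_OE had the highest mean of the 4 genotypes. SEX4 (AT3G52180), a glucan phosphatase gene, stood at 38.9, 52.2 and 41.8 CPM against 30.0, 25.8 and 18 CPM (log2 change 0.78, SE 0.17, edgeR adjusted p = 0.00697). The branching enzyme gene SBE2.1 rose by 0.63, the phosphorylase gene PHS2 by 0.62, the debranching enzyme gene ISA3 by 0.59 and the glucan kinase gene PWD by 0.48, ISA3 missing the threshold when GRF3_OE replicate 1 or 2 or WT replicate 2 was left out and the PWD call without GRF3_OE replicate 2. AMY3, an alpha-amylase gene, and DPE1, a disproportionating enzyme gene, were called higher by 0.34 and 0.45, and these calls were lost under 3 and 8 alternatives. PHS2 and PWD were still higher in GRF1_OE than in GRF3_OE, by log2 differences of -0.54 and -0.47 for GRF3_OE minus GRF1_OE (edgeR adjusted p = 0.00622 and 0.017). The 1 member called lower was BAM1 (AT3G23920), a plastid beta-amylase gene linked to stress, at 122.1, 109.6 and 126.7 CPM against 167.4, 186.5 and 199.4 CPM (log2 change -0.62, SE 0.09, edgeR adjusted p = 0.000394).

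Some clock genes that peak toward evening were higher in GRF3_OE. Of 12 tested, 4 were higher and 1, ZTL, was lower by 0.37, against 6.07% and 6.34% of all genes. After removal of the length trend 5 were higher and 0 lower, against 3.23% and 2.16%. PRR3 (AT5G60100, chr5:24197971-24201415, minus strand), a pseudo-response regulator gene, stood at 16.2, 21.8 and 15.5 CPM in GRF3_OE and 7.36, 7.86 and 10.1 CPM in WT (log2 change 1.14, SE 0.17, edgeR adjusted p = 0.000221). PRR5 (AT5G24470) stood at 30.4, 41.0 and 30.8 CPM against 16.6, 21.4 and 27.7 CPM (log2 change 0.71, SE 0.15, edgeR adjusted p = 0.00423). FKF1, a blue light receptor gene, rose by 0.92 and ELF4 by 0.77. For FKF1 the groups overlapped, since WT replicate 3 stood at 14.1 CPM and GRF3_OE replicate 3 at 13.3 CPM. The FKF1 call was lost without WT replicate 2, and the ELF4 call under 8 alternatives. TOC1 averaged 53.5 ± 6.68 CPM against 44.9 ± 6.46 and did not pass, except with the length trend removed (adjusted p = 0.0201). Of 13 morning clock genes LNK1 (AT5G64170) fell by 0.57 and LHY by 0.74, while RVE2 rose by 0.87. LNK1 held under all alternatives, and the other 2 were lost under 3 each, the length step included. The hour of harvest is not given in the sources used here, and a difference in harvest time was not tested.

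The clock-controlled RNA-binding protein genes GRP7 (AT2G21660, chr2:9265084-9266557, minus strand) and GRP8 (AT4G39260) showed the same direction. GRP7 stood at 340.2, 378.5 and 323.1 CPM in GRF3_OE and 126.2, 102.2 and 102.3 CPM in WT (log2 change 1.65, SE 0.14, edgeR adjusted p = 7.53e-07). GRP8 averaged 247.2 ± 26.1 CPM against 135.8 ± 13.9 (log2 change 0.85, SE 0.11, edgeR adjusted p = 5.75e-05). COL9 rose by 1.00 and COR27 by 1.79, at 1.46 CPM in GRF3_OE, and both calls were lost when single samples were left out. Set directly against GRF1_OE, 7 of the 12 evening genes and 6 of 20 clock output genes were lower in GRF3_OE, against 87 of all 17938 tested genes. GRP7 averaged 971.2 ± 121 CPM in GRF1_OE, a log2 difference of -1.48 for GRF3_OE minus GRF1_OE (SE 0.13, edgeR adjusted p = 1.15e-06). ELF4 differed by -2.37 and PRR3 by -1.11. The evening genes in GRF3_OE thus lay between WT and GRF1_OE in their means for PRR3, PRR5, FKF1, ELF4 and TOC1. In the samples labelled grf123 GRP7 averaged 253.6 CPM, between the WT and GRF3_OE means. GRF3_OE was higher than those samples by 0.45 on the log2 scale (edgeR adjusted p = 0.027). Direct tests against them called 2 of the 12 evening genes higher in GRF3_OE and 0 lower. The list's median log2 difference was 0.096 there and 0.34 against WT.

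Promoters of GRP7 and PRR3 are shown for the core of the evening element, AATATCT, in capitals on either strand, in the 250 bases before the start in TAIR10.1.
GRP7, chr2:9266558-9266807, minus strand: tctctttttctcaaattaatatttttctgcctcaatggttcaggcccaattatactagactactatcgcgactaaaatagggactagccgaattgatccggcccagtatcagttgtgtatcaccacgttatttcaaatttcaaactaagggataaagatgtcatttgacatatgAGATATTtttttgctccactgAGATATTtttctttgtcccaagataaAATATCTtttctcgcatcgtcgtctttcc
PRR3, chr5:24201416-24201665, minus strand: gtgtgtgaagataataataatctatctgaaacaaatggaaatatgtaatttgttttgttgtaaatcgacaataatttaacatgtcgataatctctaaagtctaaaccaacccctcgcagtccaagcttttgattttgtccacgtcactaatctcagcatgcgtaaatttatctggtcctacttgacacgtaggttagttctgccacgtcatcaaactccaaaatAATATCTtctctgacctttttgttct
GRP7 held 3 matches, 76, 55 and 29 bases before the start, and PRR3 held 1, 26 bases before it. AATATCT was present in 11.8% of all tested promoters, 19.0% of those of genes called higher and 11.3% of those called lower. It was present in 7 of 12 tested evening genes, 8 of 20 tested clock output genes and 9 of 24 tested starch genes. Among the called members of these lists it was present in 4 of 5, 4 of 4 and 5 of 9.

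Genes of jasmonate synthesis and of defence included some of the largest increases. Of 16 tested genes of jasmonate synthesis and wounding 5 were higher and 0 lower, against 6.07% and 6.34% of all genes. DESeq2 called 5 higher and 1 lower, and 1 was lower at an unadjusted p under 0.05. After removal of the length trend 3 were higher, against 3.23% of all genes. NATA1 (AT2G39030, chr2:16298110-16299205, plus strand), an acetyltransferase gene induced by jasmonate, stood at 15.4, 8.95 and 14.6 CPM in GRF3_OE and 2.41, 0.728 and 4.39 CPM in WT (log2 change 2.66, SE 0.50, edgeR adjusted p = 0.00748). The enzyme genes LOX2, AOC1 and AOC2 were called higher by 0.61, 0.65 and 1.19, but AOC1 and AOC2 are near-identical neighbours whose reads may be split. The LOX2 call was lost under 4 alternatives, the AOC1 call under 2, and the AOC2 call without WT replicate 1 or 3. TAT3, a tyrosine aminotransferase gene, was called higher by 2.58 and lost under 7. PR4 (AT3G04720, chr3:1285425-1286760, minus strand), a chitin-binding defence gene, stood at 214.2, 228.4 and 204.5 CPM against 105.1, 93.7 and 102.3 CPM, a change of 1.1 (SE 0.15, edgeR adjusted p = 0.000634) that held under all alternatives. PDF1.2, a defensin gene, averaged 38.1 ± 19.8 CPM against 10.9 ± 2.6, and its call was lost without any single WT replicate. PR1 (AT2G14610), the marker of salicylic acid responses, had the largest rise of all named genes but also a wide spread, at 34.8, 85 and 100.9 CPM against 6.10, 4.80 and 11.9 CPM (log2 change 3.5, SE 0.82, edgeR adjusted p = 0.0294). It was lost without GRF3_OE replicate 2 or 3, without any single WT replicate and with the length step. Other salicylic acid genes did not follow PR1: of 16 tested it was the only one higher, and WRKY70 and PAD4 were called lower by 1.3 and 0.62, calls lost under 4 and 9 alternatives. None of the genes named in this paragraph differed between GRF3_OE and GRF1_OE by the direct test (edgeR adjusted p of 0.0935 or more).

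Growth genes, for which the family is known, were mostly not called in these whole plants at 14 days. Of 26 tested cell cycle and DNA replication genes edgeR called 0 and DESeq2 0, limma voom called 1 lower, and 3 were higher and 2 lower at an unadjusted p under 0.05. The D-type cyclin gene CYCD3;2 averaged 46.3 ± 3.17 CPM in GRF3_OE and 43.0 ± 3.33 in WT. The list's log2 differences ran from -0.60 to 0.52, with a median of -0.08. In bulk samples, fewer cells of a type and less RNA per cell cannot be told apart. Of 13 expansin genes, which loosen cell walls, edgeR and DESeq2 called 0, and 1 was higher at an unadjusted p under 0.05. EXPA1 averaged 194.1 ± 41.8 CPM in GRF3_OE and 172.9 ± 96.5 in WT, where replicate 3 was low at 61.5 CPM. Of 15 organ size genes PPD1 was called higher by 0.96 and TCP2 and TOR (AT1G50030) lower by 0.45 and 0.40. The PPD1 and TCP2 calls were lost under 3 and 2 alternatives. TOR has a long transcript, and its difference was no longer called with the length trend removed and had the opposite sign (log2 change 0.088, adjusted p = 0.569).

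Calls were also spread over genes of other hormones. Among cytokinin response genes the regulator gene ARR4 (AT1G10470, chr1:3441988-3444360, minus strand) rose from 48.5, 40.2 and 35.1 CPM in WT to 68.1, 60.3 and 58.9 CPM (log2 change 0.56, SE 0.11, edgeR adjusted p = 0.00278) and held under all alternatives. The other 8 tested members did not pass, though the list's median was 0.54. Of 15 gibberellin genes GASA4 (AT5G15230, chr5:4944816-4946299, plus strand), induced by that hormone, stood at 101.2, 90.05 and 81.7 CPM against 53.8, 47.7 and 43.0 CPM (log2 change 0.89, SE 0.12, edgeR adjusted p = 6.33e-05), and GASA1 was called higher by 0.57. The repressor genes GAI and RGA were called lower by 0.46 and 0.35, but not with the length step. The 4 auxin genes called lower, GH3.3, GH3.5, GH3.6 and PIN3, and the brassinosteroid genes BRI1 and BAS1 were likewise not called after it. In the phenylpropanoid pathway, which supplies lignin, 5 of 15 genes were lower, against 6.34% of all genes, and 2 with the length trend removed, against 2.16%. These 2 were PAL4 and CAD4, with falls of 0.89 and 0.52, and LAC4, PAL1 and PAL2 did not.

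The summed level of photosynthesis genes, the markers of green tissue, overlapped between the groups. This sum over 23 genes was 59141 to 71748 CPM in GRF3_OE and 65549 to 67797 CPM in WT, and 1 gene was called, RBCS1B, a Rubisco small subunit gene, higher by 0.46. At an unadjusted p under 0.05, 3 were higher and 5 lower, against 2498 and 2474 of all 17938 tested genes. With the length trend removed 1 was higher and 4 were lower, against 3.23% and 2.16% of all genes. Of 20 chlorophyll genes HEMA1 (AT1G58290, chr1:21623700-21626402, minus strand), the first committed enzyme of tetrapyrrole synthesis, stood at 234.2, 243.8 and 269.5 CPM in GRF3_OE and 351.4, 407.6 and 458.9 CPM in WT (log2 change -0.70, SE 0.12, edgeR adjusted p = 0.000772). It was lower still in GRF1_OE, at 126.0 ± 5.34 CPM, and differed from GRF3_OE there (edgeR adjusted p = 2.53e-05). GUN4 and GUN5 were called lower by 0.31 and 0.42, GUN5 not with the length step, and these calls were lost under 5 and 6 alternatives.

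Markers of other organs also differed. The summed level of 22 root and root hair genes was 108.7 to 152.7 CPM in GRF3_OE and 162.2 to 191.0 CPM in WT, without overlap, and 0 of them were without counts in either group. Of the 15 tested root genes 2 were called lower, against 6.34% of all genes, but 14 had a log2 change below 0 and the median was -0.87 against 0.00 over all genes. There were 9 lower at an unadjusted p under 0.05, and limma voom called 8 lower. EXT12 (AT4G13390), an extensin gene of root hairs, was lower by 1.54 (edgeR adjusted p = 0.00145) and PRP3 by 0.90, the latter lost under 6 alternatives. With single samples left out, 1 to 7 root genes were lower, and 0 of 15 tested were higher, also by DESeq2 and at an unadjusted p under 0.05. The 10 floral organ genes summed to 39.2 to 41.2 CPM in GRF3_OE and 27.1 to 28.5 CPM in WT, with SEP3 (AT1G24260), a floral homeotic gene, called higher by 0.74 but not without WT replicate 2. For xylem the sums overlapped, at 62.7 to 78.5 and 77.5 to 102.2 CPM. Defining markers of roots and green tissue were thus present in both groups, as the label whole plant implies. The part of root or floral tissue in the changes of other genes was not tested.

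**Figure D5:**
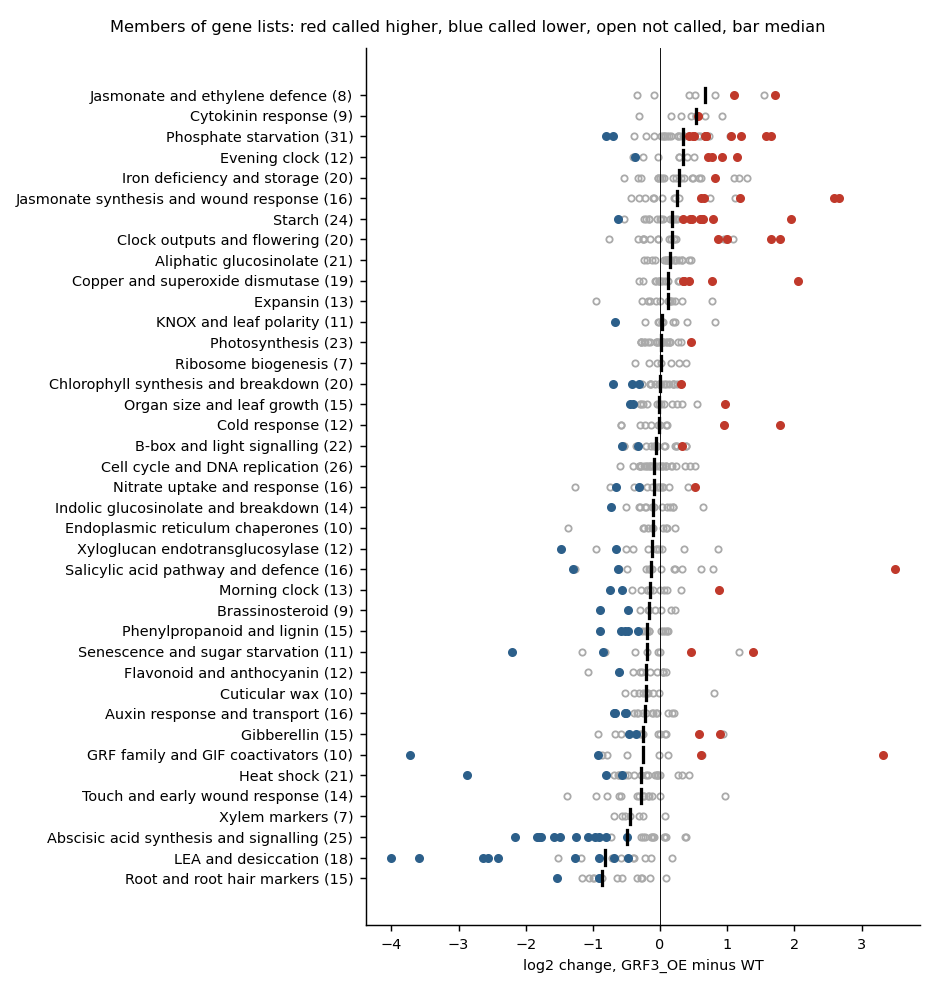
Log2 change in GRF3_OE against WT of every tested member of the gene lists with at least 5 tested members (number in brackets), ordered by their median, which is the black bar; red points were called higher, blue lower, open ones neither. The desiccation and abscisic acid lists carry 9 and 12 lower calls, and phosphate starvation and starch 10 and 8 higher calls.

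Some single genes outside the main groups also changed. PHT4;5 (AT5G20380, chr5:6887636-6892571, minus strand), a phosphate transporter gene of the PHT4 family, stood at 55.1, 62.0 and 62.1 CPM in GRF3_OE and 26.7, 25.2 and 23.3 CPM in WT. The spread was small (log2 change 1.24, SE 0.11, edgeR adjusted p = 1.27e-07). PHT4;5 averaged 51.3 CPM in GRF1_OE and 50.1 CPM in the samples labelled grf123, so that WT was the low genotype. Neither differed from GRF3_OE by the direct test (edgeR adjusted p = 0.394 and 0.077). GIP1, AAP7 (an amino acid permease gene) and DIN11 (a dark-inducible oxygenase gene) rose by 1.55, 1.23 and 1.38, and none of these 3 calls was lost under an alternative that gave a value, DESeq2 giving no adjusted p for GIP1. MSRB7, a methionine sulfoxide reductase gene, and ELF5A-1, a translation factor gene, were called higher by 1.58 and 1.27, the first not without WT replicate 2 and the second not without WT replicate 1. The thioredoxin gene TH8 was called higher by 2.25, but not without any single one of the 6 samples. The non-coding locus AT2G06002, named after its values were seen, had 113, 136 and 205 counts in GRF3_OE against 21, 21 and 10 in WT (log2 change 2.69, SE 0.21, edgeR adjusted p = 2.75e-08). It averaged 21.4 CPM in GRF1_OE and 17.7 CPM in the samples labelled grf123, so that WT was the low genotype. DAA1 (AT1G64110, chr1:23796698-23801799, minus strand), an ATPase gene, fell from 31.2, 44.5 and 37.8 CPM in WT to 7.69, 3.99 and 11.0 CPM (log2 change -2.29, SE 0.40, edgeR adjusted p = 0.00867) and was also lost under no alternative.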

How the data were processed

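Read counts per locus were deposited by the authors as 1 table of raw counts a sample. Per the submitters' processing notes, the tools Trimmomatic, TopHat2 2.0.14, HTSeq and DESeq2 and the genome TAIR10 were used. The strand setting of the counting is not given in the sources used here. A gene and an overlapping antisense gene can therefore not be told apart, and reads mapped to several places, as from near-identical genes, may be missing. The 5 rows that name no gene (57.6 to 76.9% of each table) were left out. The largest of these rows was for alignments that were not unique. It held 54.4 to 62.8% of the table in GRF3_OE and 64.1 to 73.4% in WT, without overlap. From the 28775 loci, genes past edgeR's filter (minimum count 10, minimum total 15) were tested by edgeR's quasi-likelihood test with TMM factors over all 12 samples (8 residual degrees of freedom) with Benjamini-Hochberg adjustment at 0.05. The SE is the log2 change divided by the square root of F. CPM use TMM-scaled totals. R 4.3.3, edgeR 4.0.16, DESeq2 1.42.0 and limma 3.58.1 were used. The fit was tested on simulated data. Replicates of a group differed by more than sampling noise (chi-square per degree of freedom at least 2.24).

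Gene positions, lengths and promoters come from TAIR10.1, to which 28009 of the loci (97.3%) matched, while the deposited tables hold no coordinates. The 41 gene lists, of which 713 loci are in the tables and 607 were tested, and the comparison itself were chosen with earlier results of these data known. Named were the GRF and GIF genes, the genes with the largest called changes, at most 15 higher and 15 lower (with a symbol, no overlap of samples and a mean of at least 5 CPM in the higher group), and up to 4 called members of each list by adjusted p. Other list members, and the loci described as such, were named after their values were seen. The chromosome 2 window and the ribosomal protein set were also chosen after seeing the data. Alternatives were other scaling factors, ribosomal RNA left out, other filters, DESeq2, limma voom, a fit of the 6 samples, a replicate block, length or GC trends removed (lowess span 0.3) and each sample left out, 17 in all. Flags for outlying samples were not computed, since groups hold 3 samples.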

Additional observations from a re-analysis of the deposited data

How the results depend on the processing

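The rise of GRF3 kept its direction and its call under all 17 alternatives, with log2 changes from 3.08 to 3.46. The count of genes called (2226) stayed within 1.5 times under other scaling factors, filters and tools, and with the chromosome 2 window left out, a choice made after seeing the data, it was 2187. It moved to 967 (580 higher, 387 lower) with the length trend removed, which raised the share of higher calls from 48.9% to 59.98%. Leaving out single samples gave 1200 to 1788 calls, of which 599 to 762 were higher and 593 to 1026 lower. Genes called and at least 2-fold changed numbered 273, 174 with DESeq2 and 184 to 283 with single samples left out. Among 139 named genes, TOR turned from -0.40 to 0.088 on the log2 scale with the length trend removed, and GRF4 passed without WT replicate 1. The length step ended the calls of TOR and 48 others, and leaving out WT replicate 2 ended 54. These causes were not tested. WT replicate 3, with 2820223 gene counts, sets the depth limit for rare transcripts.

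With the replicate number as a block, 2017 genes were called (950 higher, 1067 lower). The same-numbered GRF3_OE and WT samples had correlations of their deviations from the group means of 0.138, 0.0969 and 0.0913. Each GRF3_OE sample correlated best with the WT sample of its own number, and pairs of unlike number ran from -0.107 to -0.0188. The plants were grown in blocks, but the labels do not tie the replicate numbers to them. Whether the numbers stand for blocks cannot be told from these correlations, so the main fit holds no block and the block fit is an alternative.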

Other observations

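Some gene groups outside the main account held a few changes. Of 21 tested heat shock genes 3 were lower, HSFA6A by 2.87, HSFB2A by 0.80 and HSP101 by 0.57, and the last 2 calls were lost under 3 and 7 alternatives. Of 16 nitrate genes NRT1.1, the main nitrate transporter and sensor, was called lower by 0.65 and NIR1 by 0.31, while RFNR1, a root ferredoxin reductase gene, was called higher by 0.52, none of them under all alternatives. In 14 touch response genes edgeR called 0, as did DESeq2 and limma voom, and 0 passed at an unadjusted p under 0.05. TCH4, a touch-induced wall enzyme gene, stood at 242.8 CPM in WT replicate 3 and at 32.9 to 54.4 CPM in the other 5 samples. In 21 aliphatic glucosinolate genes edgeR and DESeq2 called 0, and 3 were higher at an unadjusted p under 0.05.

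The total gene counts of some samples of different genotype were nearly equal. GRF3_OE replicate 2 had 6893011 and WT replicate 2 had 6893017 counts, a difference of 6, and GRF3_OE replicate 1 and GRF1_OE replicate 1 differed by 149. Their contents differed beyond sampling noise, with a chi-square per degree of freedom of 10.4 and 6.17.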
